A study of Ovis aries with 26 samples.

Results

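Cloned and naturally bred CFTR-/- sheep fetuses were compared at 120 days of gestation, to ask how far pancreases that carry the same kind of knockout differ with the way the animals were made. The comparison took the 120-day CFTR-/- libraries listed as cloned in the sample table of the study (5 libraries of 4 animals) against those listed as natural (2 libraries of 2 animals), 7 of the 26 libraries and 6 of the 23 animals of the series. After the study's thresholds on genes and mitochondrial RNA, 20497 of 79510 cells belonged to these animals, 13004 of them from cloned and 7493 from natural fetuses. The cloned animals are named here cloned 1 to 4 and the natural animals natural 5 and 6, by the replicate numbers of the sample records.

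All 6 animals carried CFTR alleles targeted in exon 2 and were of the American Romney breed. The cloned fetuses were made by somatic cell nuclear transfer from CF2503, a line of male neonatal CFTR-/- fibroblasts, so that they shared 1 nuclear genotype. Cloned 2 and cloned 3 bear 1 shared animal number with different suffixes, as fetuses of the same recipient ewe would. The natural fetuses were twins from the mating of CFTR+/- parents, so that they are 1 litter. Every cloned animal was labelled male and both natural animals female, and breeding, sex and litter therefore cannot be told apart. Naturally bred WT fetuses of the same age (WT 1 and WT 3 male, WT 2 female) are given beside them as reference levels. WT 1 and WT 2 also bear 1 shared animal number with different suffixes, and WT 3 bears another. At term, a pair of naturally bred CFTR-/- female lambs (term 1 and 2) and 1 cloned CFTR-/- male lamb (term 3) give the same contrast in other animals.

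The exocrine pancreas is built of acinar cells, which make and store digestive enzymes as zymogens, and of ducts, whose cells secrete the bicarbonate-rich fluid that carries those enzymes to the gut. CFTR is the chloride and bicarbonate channel of the duct cell surface, and its loss leaves the secretions thick, with plugged ducts and loss of acini before birth. In nuclear transfer the nucleus of a body cell is placed in an emptied oocyte, which has to reset its epigenetic state, and cloned ruminants are known for disturbed imprinting and overgrowth in some fetuses.

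The libraries (10x Genomics 3′ assay) held 7841217 to 93046244 unique molecular identifiers (UMIs, 1 for each captured transcript molecule) and 943 to 4269 kept cells. Cloned 3 stood apart from the others. It had the fewest UMIs and kept cells, a median of 3425 UMIs per cell against 8174 to 14493 in the other libraries, and 8.6% mitochondrial UMIs against 4.29% to 5.66%. Pairs of these libraries shared at most 6 cell barcodes. CFTR was counted in every library, since 3′ tags lie outside the targeted exon, and its level does not check the knockout. The enzyme mix used to dissociate the tissue, collagenase or Liberase, is not given for each library and its part was not tested.

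Cells were assigned to a lineage by the summed level of fixed marker genes. The leading genes of the lineages matched their names. They were CLPS, CEL, PRSS2 and CPA1 in acinar-like cells, SLC4A4 and SOX9 in duct-like cells, GCG, PPY and SST in endocrine-like cells, DCN and COL1A1 in stromal-like cells, ACTA2 and MYH11 in mural-like cells, CDH19 in Schwann-like cells, and PECAM1 and VWF in endothelial-like cells. The myeloid-like cells had none of their fixed markers among their 10 leading genes and 3 among the leading 25. Another 13 cells met the intestine markers but were led by ADIPOQ and FABP4, genes of fat cells, and were left unnamed.

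Acinar-like cells were the largest class of kept cells in the natural animals and took a smaller share of the kept cells in every clone. They formed 42.7%, 30.5%, 4.24% and 31% of the kept cells in cloned 1 to 4 and 63.9% and 52% in natural 5 and 6. The groups did not overlap (27.1% ± 16.2, SD, n = 4, against 57.9% ± 8.47, SD, n = 2), and the mean log2 share was lower by 1.5 in cloned animals. With 4 animals against 2 the exact two-sided permutation test over the 15 arrangements cannot give a p below 0.133, which is what it gave here, and the Benjamini-Hochberg value over the lineages was 0.489. WT 1 to 3 had 56.9%, 63.4% and 34.9%, so that their range spanned the gap. Without cloned 3 the mean of the cloned animals was 34.7% ± 6.91 (SD, n = 3) and the log2 difference shrank to -0.75. All shares are of cells recovered after dissociation, not of the tissue. The paper proposes that live acinar cells may be hard to capture, and it describes the lesions at 120 days as focal. The part of either in these shares was not tested.

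The shares of 2 other lineages were also apart, both higher in the cloned animals with the same smallest p of 0.133 (exact two-sided permutation test). Endothelial-like cells, which line the vessels, made up 4.27%, 6.15%, 44.6% and 3.48% in cloned 1 to 4 against 2.25% and 3.04% in natural 5 and 6. Cloned 3 stood far above the rest, and without it the log2 difference fell from 1.61 to 0.78. WT animals held 3.75% to 4.81%, above both natural animals and within the range of the clones.

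Schwann-like cells, the glia of the pancreatic nerves, showed the widest relative gap between the groups. They were 1.42%, 3.67%, 7.64% and 0.758% of the cells in cloned 1 to 4, against 0.307% (exact 95% interval 0.159% to 0.536%) and 0.334% (0.173% to 0.583%) in natural 5 and 6, where 12 cells were found in each animal. The log2 difference was 2.83 and remained 2.26 without cloned 3. WT animals had 0.725%, 0.103% and 0.538%, all under the lowest clone. A quasi-likelihood test of the cell numbers in edgeR gave a log2 difference of 3.37 with an adjusted p of 0.310. At 80 days the 3 cloned CFTR-/- fetuses had 11.7%, 1.99% and 6.79%. At term the cloned lamb had 0.728% and the naturally bred lambs 0.064% and 0.537%, so that the cloned lamb was again the highest, by a narrower margin. Intervals of this kind cover counting error only.

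The other lineages overlapped between the groups. Duct-like cells formed 15.3%, 17.2%, 10.1% and 42.6% in cloned 1 to 4 and 13.2% and 16.1% in natural 5 and 6, with cloned 4 far above the rest. No endocrine-like cell was found among the 943 cells of cloned 3, which allows a share of up to 0.318% by the limit of 3 counts and 0.39% by the exact 95% interval, while the other clones had 14.6% to 23.1% and the natural animals 5.79% and 19.7%. Mural-like cells reached 19.9% in cloned 3 against 1.44% to 3.52% in the other clones and 1.42% and 1.84% in the natural animals. Lymphoid-like cells were 3.41% in natural 5 and 0.111% in its twin natural 6, a wider spread than that among the clones, which ran from 0% to 0.918%. That class was less sharply bounded, with 36.6% of its cells leading another lineage by a score under the strict 0.2. In natural 5 it also held 2240 CPM of the 7 myeloid gating markers, against 0 to 268 CPM in the other 120-day animals that had such cells, and their part in its share was not tested. Stromal-like cells ranged from 1.25% to 9.31% in the clones and were 2.64% and 2.98% in the natural animals. The plot of shares by animal shows that the clones spread more widely than the natural pair in the duct-like, mural-like and endothelial-like classes. Without cloned 3 their SD fell from 8.63 to 1.16 in mural-like and from 20 to 1.37 in endothelial-like cells. The natural pair had the larger SD in endocrine-like (9.83 against 9.67), myeloid-like (0.949 against 0.69) and lymphoid-like cells (2.33 against 0.398). These spreads are over 4 animals and 2 twins, and were not tested.

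**Figure D1:**
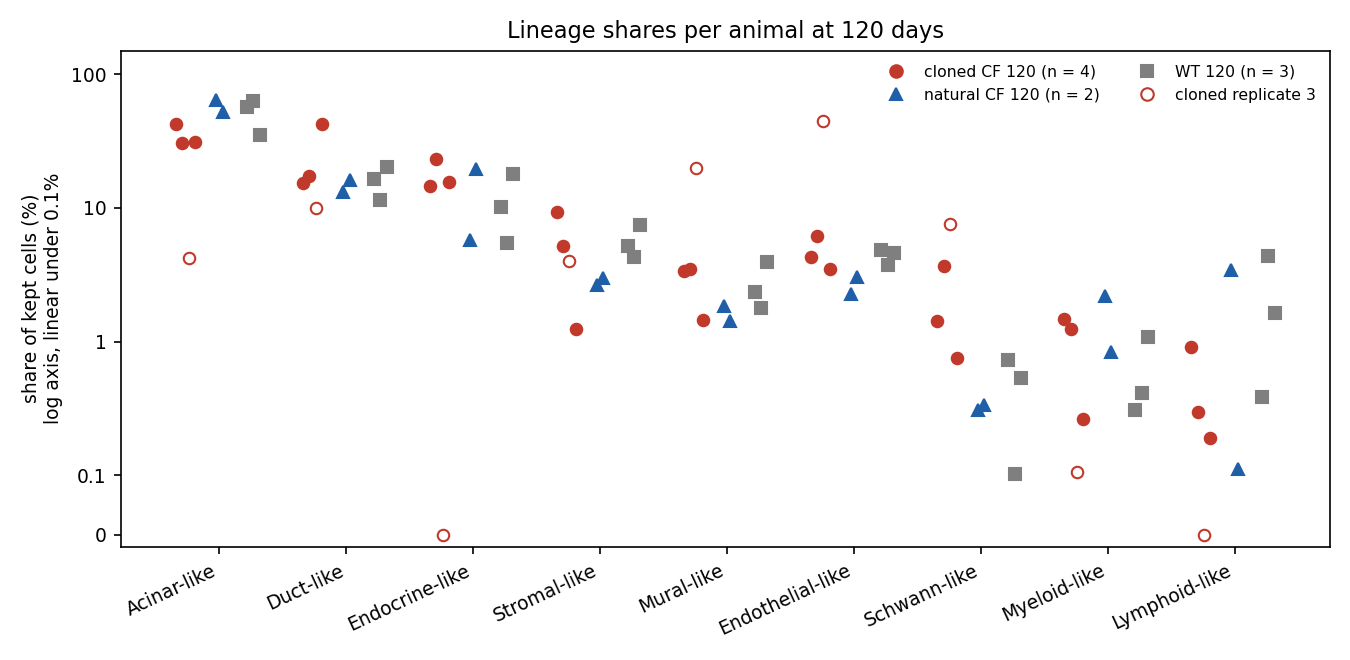
Share of kept cells in each marker-gated lineage (percent, log axis that is linear under 0.1%), 1 point per animal, for cloned CFTR-/- (circles, cloned 3 open), naturally bred CFTR-/- (triangles) and WT fetuses (squares) at 120 days. Every circle lies below both triangles in the acinar-like class and above both in the endothelial-like class, where the triangles sit at 2.25% and 3.04%, and in the Schwann-like class, where they sit at 0.307% and 0.334%.

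Expression was then compared within each lineage, on UMI counts summed per animal. Levels are UMI counts scaled to the UMI total of the lineage in that animal (CPM), a log2 fold change is the cloned over the natural level, and a gene is called at an edgeR adjusted p of at most 0.05. Acinar-like cells gave the most calls, with 629 of 13957 tested genes (4.51%), 455 higher (3.26%) and 174 lower (1.25%) in the clones. The number rested on single animals. It was 144, 279, 398 and 1867 without cloned 1, 2, 3 and 4, and 58 and 72 without natural 5 and 6, when a lone natural animal was left and was assumed to vary as the clones do. Cloned 3 gave only 40 acinar-like cells with 1028715 UMIs, against 14313484 to 91964441 UMIs in the other animals. Every WT animal lay above both natural animals in 346 of the 455 higher genes (76%, against 19.1% of all genes tested). In 134 of the 174 lower genes every WT animal lay below both (77%, against 24.4%). The reverse held in 0 genes of either set. The natural animals also entered the calls, so that these shares are a description only.

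Of the fixed lists, heat shock and immediate early genes had the most genes called higher in the acinar-like cells of clones. Of these 25 genes, which are also known to respond to tissue dissociation, 14 were called higher and none lower, and the median log2 fold change was 2.58 against 0.025 over all genes tested. Called higher were 3.26% of all genes tested. In 22 of the 25 every clone lay above both natural animals, which held for 34.4% of all genes tested (animals of the groups did not overlap, in either direction, in 38.1%). The summed level of the list ran from 7122 to 32795 CPM in the clones, from 2157 to 2656 CPM in the natural animals and from 11334 to 22022 CPM in WT animals. The natural pair thus lay under both the clones and the WT animals, and the part of dissociation was not tested.

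HSPH1, a co-chaperone of HSP70, was at 2198, 1589, 2428 and 221 CPM in cloned 1 to 4 and at 30.7 and 33.7 CPM in natural 5 and 6. The groups were apart by a log2 fold change of 5.03 (SE 0.98, adjusted p 0.0409), with cloned 4 well below the other clones. WT 1 to 3 had 258, 306 and 1322 CPM, all above the natural pair. HSP90AA1, the stress-inducible HSP90, was at 8033, 6700, 6619 and 1467 CPM against 543 and 510 CPM, a log2 fold change of 2.87 (SE 0.64, adjusted p 0.0456). HSPA8 and HSPA6, members of the HSP70 family, were higher by 2.58 and 3.29 on the log2 scale, and the HSP40 genes DNAJB1 and DNAJA1 by 2.54 and 2.59. In each of these genes cloned 4 had the lowest level among the clones and still lay above both natural animals.

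The called transcription factors of that list were JUN, EGR1, ATF3, NR4A1, KLF4 and KLF6, which cells switch on within minutes of a stimulus. ATF3 was at 439, 1145, 1866 and 351 CPM in cloned 1 to 4 against 97.2 and 67.5 CPM in natural 5 and 6 (log2 fold change 2.75, SE 0.47, adjusted p 0.0178). KLF6 was at 225, 358, 975 and 155 CPM against 20.6 and 33.8 CPM (3.2, SE 0.53, adjusted p 0.0173). JUN showed the smallest change of the 6, a log2 fold change of 1.56. Cloned 3, the shallow library, was the highest for JUN, EGR1, ATF3, NR4A1, KLF4 and KLF6 alike, and the groups stayed apart among the other clones in each of them.

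Genes of apoptosis and injury were called in both directions. CDKN1A, the p21 inhibitor of the cell cycle, was at 50.7, 89.8, 106 and 35.3 CPM in cloned 1 to 4 and at 0.866 and 1.14 CPM in natural 5 and 6. It was higher by 5.46 on the log2 scale (SE 0.33, adjusted p 4.7e-05), and WT 1 to 3 had 33.5, 11 and 61.2 CPM. GADD45A, a gene induced by DNA damage and other stress, was at 214, 385, 449 and 111 CPM against 15.1 and 13 CPM (log2 fold change 3.67, SE 0.40, adjusted p 0.0023). Of 19 tested genes of apoptosis and injury, 4 were called higher (CDKN1A, GADD45A, GADD45B and BCL2L11, the last a promoter of cell death) and 1 lower (REG1A), with a median of 0.2. Over all genes tested in these cells 3.26% were called higher and 1.25% lower. None of 30 genes of cell division was called, with a median of 0.28.

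Among the fixed lists, the targets of the YAP and TEAD factors, which respond to cell stretch and contact, had the largest called fraction. Of 12 tested, 7 were called higher (ANKRD1, CTGF, AMOTL2, LATS2, F3, CRIM1 and NUAK2) and none lower, with a median log2 fold change of 1.89. Over all genes tested in acinar-like cells 3.26% were called higher. F3, tissue factor, was at 31.8, 39.1, 64.2 and 13.8 CPM in cloned 1 to 4 and at 0.0698 and 0.363 CPM in natural 5 and 6 (log2 fold change 6.73, SE 0.68, adjusted p 0.00445). ANKRD1, an ankyrin repeat protein, was at 46.3, 74.3, 193 and 14.1 CPM against 0.433 and 1.44 CPM (5.61, SE 1.06, adjusted p 0.0456). Both genes were low in WT 1 and WT 2, at 2.86 and 2.05 CPM for F3 and 1.45 and 0.765 CPM for ANKRD1, and nearer the clones in WT 3, at 24.2 and 39.7 CPM.

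Some genes typical of ducts were also higher in the acinar-like cells of clones. HES1, the Notch target that holds pancreatic progenitors undifferentiated, was at 99.3, 175, 267 and 108 CPM in cloned 1 to 4 against 6.62 and 7.76 CPM in natural 5 and 6 (log2 fold change 3.83, SE 0.28, adjusted p 0.000127). The epithelial ETS factors ELF3 and ELF5 were higher by 2.2 and 0.95. Of 20 tested duct factors and mucins these 3 genes were called, with a median of 0.45 against 0.025 over all genes. Called higher were 3.26% of all genes tested. The 7 duct markers were used to assign the cells, so that their levels are a description only. Their summed level in acinar-like cells ran from 306 to 644 CPM in clones, from 155 to 198 CPM in the natural pair and from 143 to 323 CPM in WT animals.

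Some genes of hypoxia and of matrix were called as well, to be read against the 4.51% of all genes called in these cells. VEGFA, SLC2A1 (the GLUT1 glucose transporter), PFKFB3, ADM and NDRG1 were called higher and ANKRD37 lower, 6 of 23 tested, while the median of that list was -0.12. COL4A1, a basement membrane collagen, and TIMP3, an inhibitor of matrix proteases, were the called genes among 24 of matrix, with log2 fold changes of 1.35 and 4.38. HERPUD1, which acts in the removal of misfolded proteins, was the called gene among 19 acinar factors and genes of the endoplasmic reticulum, higher by 1.54. CRYAB, a small heat shock protein, was at 274, 178, 459 and 56.9 CPM in cloned 1 to 4 against 7.7 and 7.11 CPM (4.36, SE 0.72, adjusted p 0.0224) and was the called gene among 13 of the Schwann and injury list. IRF7 and NLRC5 among 19 genes of interferon and antigen presentation and GAST among 17 islet hormones and granins were called too, each at 9.36 CPM or less in every clone.

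**Figure D2:**
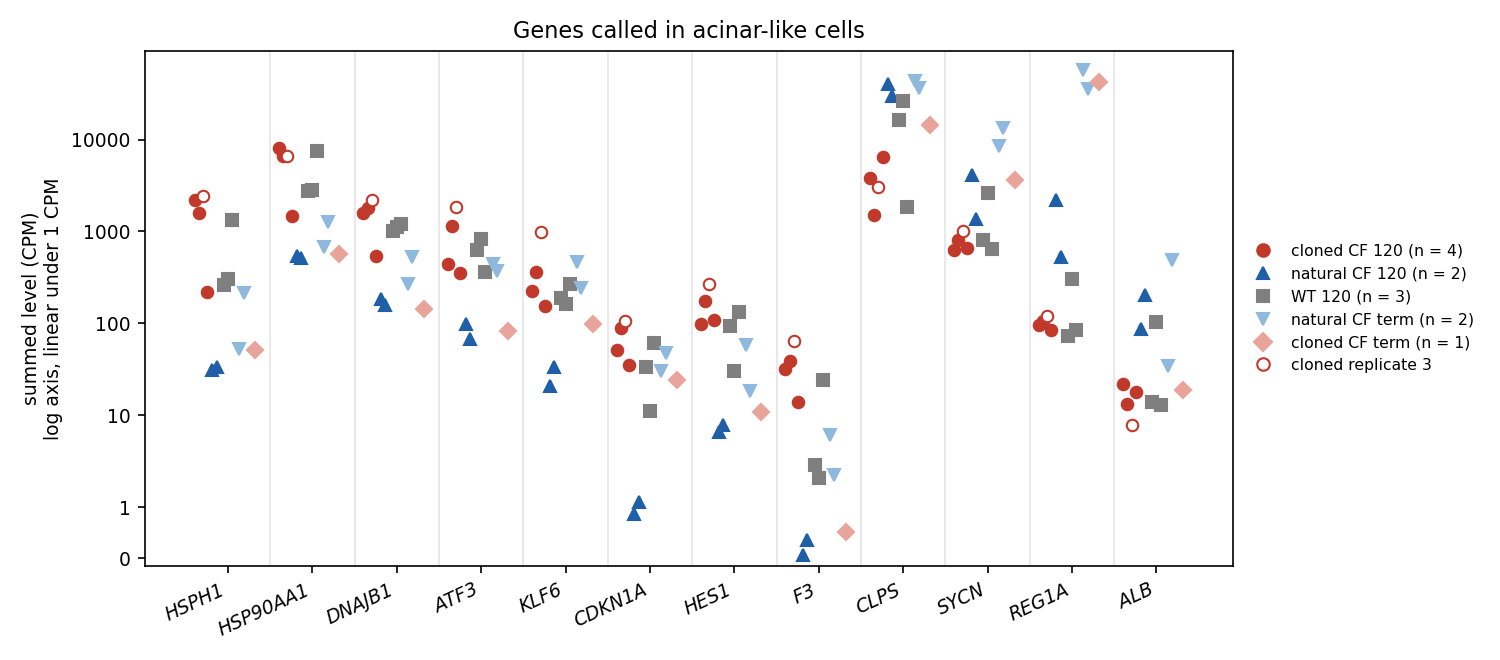
Level of 12 named genes in acinar-like cells (CPM of UMIs summed per animal, log axis that is linear under 1 CPM), 1 point per animal, with the 120-day groups and the CFTR-/- lambs at term. For HSPH1 the clones lie at 221 to 2428 CPM and the natural pair at 30.7 and 33.7 CPM, and for CLPS the clones lie at 1510 to 6435 CPM and the natural pair at 40233 and 29451 CPM.

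Fewer genes were lower in the acinar-like cells of clones, and the 4 named for the largest falls were CLPS, SYCN, REG1A and ALB. CLPS, the colipase that lipase needs to work on fat, was at 3825, 1510, 3047 and 6435 CPM in cloned 1 to 4 and at 40233 and 29451 CPM in natural 5 and 6. It fell by 3.63 on the log2 scale (SE 0.67, adjusted p 0.0305). WT 1 and WT 2 had 16180 and 26432 CPM and WT 3 only 1830 CPM, a level within the range of the clones. SYCN, a protein of the zymogen granule membrane, was at 623, 810, 1003 and 656 CPM against 4145 and 1374 CPM (log2 fold change -2.44, SE 0.38, adjusted p 0.011).

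REG1A, a secreted lectin of acinar cells, was at 95.6, 106, 120 and 84.3 CPM in cloned 1 to 4 and at 2203 and 527 CPM in natural 5 and 6 (log2 fold change -4.32, SE 0.49, adjusted p 0.00511). The clones differed little among themselves, and the twins differed more from each other than any clone from another. At term all 3 lambs, cloned or not, held between 35845 and 57796 CPM. ALB, serum albumin, was at 7.78 to 21.6 CPM in the clones against 86 and 203 CPM (log2 fold change -3.54, SE 0.54, adjusted p 0.0184), and WT 2 at 103 CPM was the high one of the WT animals.

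The digestive enzymes as a group were less clear than these genes. Of 21 listed enzymes and granule proteins, 3 were called lower (CLPS, SYCN and REG1A, against 1.25% of all genes tested) and none higher. The median log2 fold change of the list was -1.07, and 8 lay below both natural animals in every clone, which held for 3.65% of all genes tested. Their summed level was 37729 to 89267 CPM in the clones, 113969 to 141526 CPM in the natural pair and 68216 to 112861 CPM in WT animals. None of the 9 gating markers of acinar cells was called, with a median of -0.90. These markers were used to assign the cells, so that their levels are a description only.

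In duct-like cells 32 of 12290 genes were called (0.26%), 24 higher (0.195%) and 8 lower (0.0651%) in the clones. The number was 2, 4, 324 and 69 without cloned 1, 2, 3 and 4, and 2 without either natural animal. With size factors by relative log expression in place of TMM the calls were 13, of which 7 were higher and 6 lower. DESeq2 called 460. The balance toward higher genes turned without cloned 2 (1 higher and 3 lower) and without either natural animal (0 higher and 2 lower each).

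The largest rise among the named duct genes was in CXCL8, the neutrophil attractant interleukin 8. Duct-like cells held 170, 414, 485 and 99 CPM in cloned 1 to 4 and none in the 9378699 UMIs of natural 5 and 6, so that the lowest clone was at least 310-fold higher (edgeR adjusted p 0.034, with the floor of 3 counts taken over the natural pair). WT 1 to 3 had 12.3, 10.2 and 74.4 CPM, all above the natural pair and below the clones. CXCL8 was also a leading gene of the myeloid-like cells, where it was at 11226 to 24564 CPM in the clones and at 1605 and 4221 CPM in the natural pair, which held 85 and 30 myeloid-like cells. In acinar-like cells it was at 44.5, 313, 1838 and 15 CPM in cloned 1 to 4 against 1.12 and 3.28 CPM, and was not called there (edgeR adjusted p 0.174). In cloned 3, where 1 myeloid-like cell was found, the acinar-like level thus lay above the duct-like one. The part of free RNA from myeloid cells in the duct-like level was not tested.

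SGMS2 and FOSL1 were also among the duct genes named for the largest rises. SGMS2, a sphingomyelin synthase, was at 444, 92.9, 322 and 144 CPM in cloned 1 to 4 and at 6.61 and 7.39 CPM in natural 5 and 6 (log2 fold change 5.13, SE 0.76, adjusted p 0.0478). FOSL1, a subunit of the AP-1 factor, was at 88.2, 49.8, 71.3 and 41.6 CPM against 2.83 and 2.53 CPM (4.55, SE 0.44, adjusted p 0.0195). The natural twins were close to each other in both genes, and no clone came near them.

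ANKRD1 and F3 were called in duct-like cells too. ANKRD1 was at 1330, 662, 918 and 553 CPM in cloned 1 to 4 against 60.6 and 63.6 CPM in natural 5 and 6 (log2 fold change 3.81, SE 0.54, adjusted p 0.0475), and WT 1 to 3 had 278, 465 and 608 CPM. They were the called members of 12 YAP targets, whose median was 1.32, and 8 of the 12 lay above both natural animals in every clone, which held for 14.9% of all genes. Over all genes tested in duct-like cells 0.195% were called higher. REL, a subunit of NF-kappaB, was at 142 to 245 CPM against 34.4 and 42 CPM (2.32, SE 0.34, adjusted p 0.0475). SLC7A1, a carrier of cationic amino acids, was higher by 2.3 (SE 0.33, adjusted p 0.0475).

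Among the lower genes, HELQ, a DNA repair helicase, was at 5.3, 7.61, 15.7 and 9.33 CPM in cloned 1 to 4 against 54 and 49.6 CPM in natural 5 and 6 (log2 fold change -2.58, SE 0.32, adjusted p 0.034). GUCY1A3, a subunit of the nitric oxide receptor, was at 9.11 to 18.5 CPM against 52.8 and 55.4 CPM (-2.1, SE 0.26, adjusted p 0.034). CLPS was lower by 4.11 in these cells (28.5 to 79.9 CPM against 1281 and 665 CPM). It is an acinar gene. Over the duct-like, endocrine-like, stromal-like, mural-like, endothelial-like, Schwann-like, myeloid-like and lymphoid-like cells it ran from 881 to 2404 CPM in natural 5 and from 422 to 1295 CPM in natural 6, and from 79.9 to 115 CPM in cloned 1 and from 46.7 to 134 CPM in cloned 4. Cloned 2 and cloned 3 reached 30.2 and 28.5 CPM, both in duct-like cells, and were at 0 in 1 lineage each. The part of free acinar RNA in the duct-like level was not tested.

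None of the 25 stress genes was called in duct-like cells, where their median log2 fold change was 0.86. In 8 of the 25 every clone lay above both natural animals, which held for 14.9% of all genes tested. Their summed level overlapped, at 18733 to 48967 CPM in the clones against 21966 and 22946 CPM in the natural pair.

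The genes of duct secretion did not separate the groups. None of 12 tested genes of ion and bicarbonate transport was called in duct-like cells, and their median log2 fold change was 0.028. CFTR transcripts, which cannot be read as protein in these knockouts, were at 244, 268, 848 and 198 CPM in cloned 1 to 4 and at 185 and 247 CPM in natural 5 and 6 (log2 fold change 0.74, SE 0.53, adjusted p 0.552), with 163 to 286 CPM in WT animals. Cloned 3 alone was high. None of 25 tested nuclear genes of the respiratory chain was called, while 19 lay below both natural animals in every clone, which held for 19.3% of all genes, and their median was -0.61 against 0.038 over all genes.

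**Figure D3:**
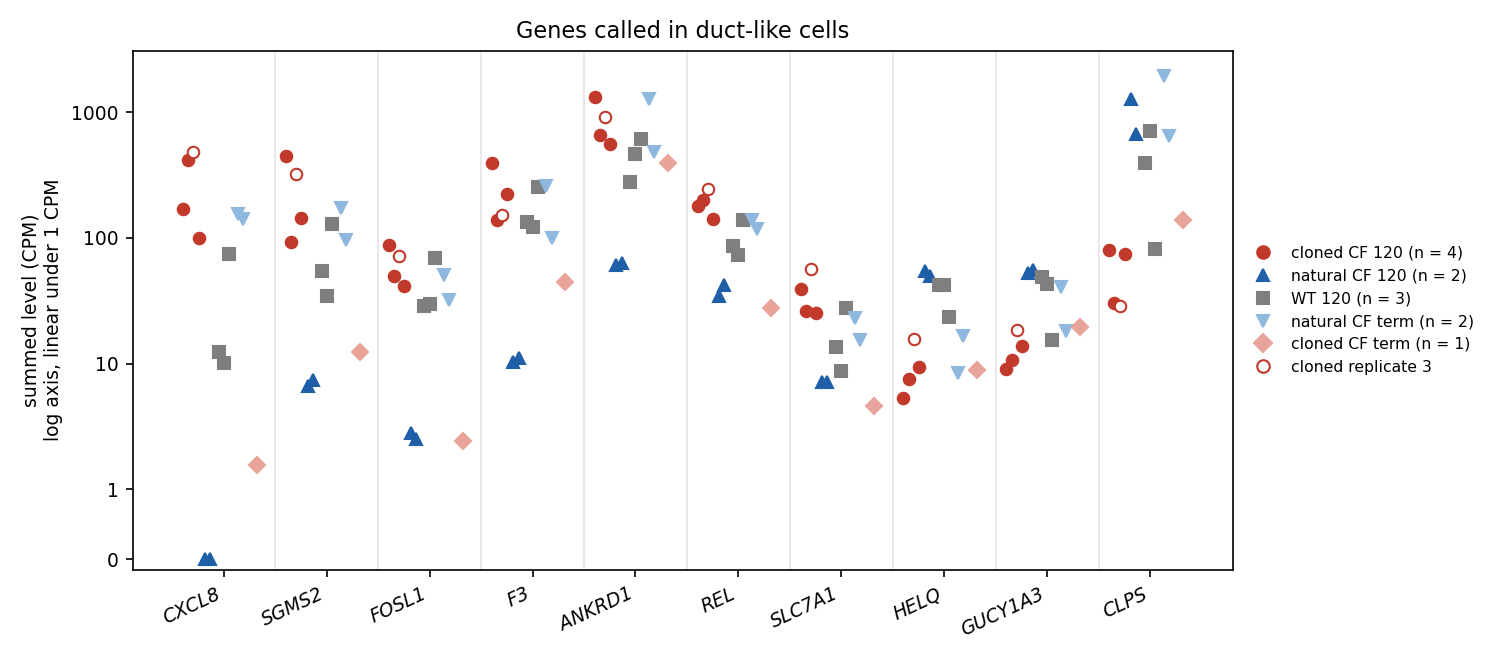
Level of 10 named genes in duct-like cells (CPM of UMIs summed per animal, log axis that is linear under 1 CPM), 1 point per animal, drawn as for the acinar-like cells. For CXCL8 the clones lie at 99 to 485 CPM and the natural pair at 0, while at term the cloned lamb, at 1.56 CPM, lies under the naturally bred lambs at 154 and 143 CPM.

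Endocrine-like cells were compared in 3 clones, since cloned 3 had none. Of 12155 genes 150 were called (1.23%), 104 higher (0.856%) and 46 lower (0.378%), and the groups did not overlap in any called gene, nor in 36.7% of all genes tested. The calls fell to 21 and 26 without natural 5 and 6. Hormones and secretory granule proteins showed no called gene among 20 tested, and their median was 0.16. MT-ND4L, a mitochondrial subunit of complex I, was the called gene among 13 encoded in mitochondria, higher by 0.93.

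MT1A, a metallothionein that binds zinc and copper, was at 160, 245 and 283 CPM in cloned 1, 2 and 4 and at 20.9 and 18.7 CPM in natural 5 and 6 (log2 fold change 3.45, SE 0.34, adjusted p 0.00133). ETS2, an ETS family factor, was at 58.2, 63.7 and 49 CPM against 4.28 and 7.71 CPM (2.97, SE 0.24, adjusted p 3.11e-05). TPPP3, a tubulin-binding protein, was higher by 2.55 (SE 0.42, adjusted p 0.0215). In all 3 genes WT animals were above both natural animals. The stress list gave 2 called genes of 25 here, NR4A1 and KLF6, with a median of 1.3, and 13 of the 25 were above both natural animals in every clone against 24.2% of all genes. Called higher here were 0.856% of all genes.

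Imprinted genes, whose marks cloning can disturb, gave 1 call in 24 tested in these cells, where 1.23% of all genes were called. PEG3, a zinc finger gene active on the paternal copy, was at 39.6, 40.3 and 20.2 CPM in cloned 1, 2 and 4 against 12.3 and 12.7 CPM in natural 5 and 6 (log2 fold change 1.26, SE 0.26, adjusted p 0.0351), and WT 1 to 3 had 24.1, 16.4 and 40.2 CPM. ZDBF2, a gene imprinted in other mammals that was not on that list, was at 121, 125 and 84.1 CPM against 19.2 and 17.2 CPM (2.48, SE 0.21, adjusted p 4.61e-05). WT 1 to 3 spread from 21.4 to 210 CPM for ZDBF2 in these cells. ZDBF2 was also called higher in the acinar-like cells of clones. No imprinted gene of the list was called in the 5 other fitted lineages, where 11 to 24 were tested and the medians ran from 0.12 to 0.39.

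Of 17 tested acinar factors and genes of the endoplasmic reticulum 2 were called higher in endocrine-like cells, with a median of 0.52. Over all genes tested there 0.856% were called higher and 0.378% lower. HSP90B1, the HSP90 of that compartment, was at 1491, 1316 and 1084 CPM in cloned 1, 2 and 4 against 481 and 598 CPM (log2 fold change 1.13, SE 0.19, adjusted p 0.0117), and MANF, a secreted factor of the unfolded protein response, was higher by 1.13 (SE 0.2, adjusted p 0.0153). IRX2, a homeobox gene of alpha cells, was at 80.8, 91.6 and 82.3 CPM against 150 and 141 CPM (-0.90, SE 0.18, adjusted p 0.0309), the called gene of 14 islet factors. CA2, a carbonic anhydrase, was lower by 0.98 (log2 fold change -0.98, SE 0.19, adjusted p 0.0269).

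The 4 named genes with the largest falls in these cells were CTRB1, CPB2, BACE2 and MESP2. BACE2, a protease of islet cells, was at 32.7, 23.6 and 16.6 CPM against 39 and 69.3 CPM (log2 fold change -1.32, SE 0.26, adjusted p 0.0361), and MESP2, a transcription factor of the early mesoderm, at 7.17 to 10.1 CPM against 23.5 and 23.1 CPM (-1.57, SE 0.25, adjusted p 0.00951). CTRB1, chymotrypsinogen, is an acinar gene. Genes at least 5-fold more abundant in acinar-like than in endocrine-like cells were counted. The acinar-like level was the mean over all cloned and natural animals, and the endocrine-like level the higher of the 2 group means. Such genes made up 4 of the 46 lower and 5 of the 104 higher genes, and 140 (1.15%) of all 12155 tested. The summed level of the digestive enzymes in endocrine-like cells was 2260 and 3666 CPM in the natural pair against 475 to 1627 CPM in the clones. It was also higher in the natural pair in the duct-like cells (3219 and 4953 CPM against 727 to 2425 CPM in the clones). The same held in the stromal-like, mural-like and endothelial-like cells. The part of free acinar RNA in the falls of endocrine-like cells was not tested.

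The 3 supporting lineages gave few calls. In stromal-like cells 12 of 5947 genes were called (0.202%), 4 higher (0.0673%) and 8 lower (0.135%), with 7 and 20 calls without cloned 2 and 4. The balance toward lower genes turned by DESeq2 (25 higher and 12 lower), without the low-count filter (56 and 34) and without cloned 4 (12 and 8). In mural-like cells 11 of 5283 were called (0.208%), 8 higher (0.151%) and 3 lower (0.0568%), with 23, 6 and 27 calls without cloned 1, 3 and 4 and 2 and 23 without natural 5 and 6. In endothelial-like cells 10 of 7993 were called (0.125%), 8 higher (0.1%) and 2 lower (0.025%), with 18 and 6 calls without cloned 1 and 3 and 2 and 3 without natural 5 and 6. In mural-like cells the balance toward higher genes turned with the stricter gate (1 higher and 3 lower), after thinning (3 and 4) and without cloned 1 (11 and 12). None of the fixed genes of collagen and matrix (26 and 23 tested) or of contraction and stellate cells (14 and 17 tested) was called in stromal-like or mural-like cells.

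In stromal-like cells the natural pair held some transcripts that the clones almost lacked. CA5A, a mitochondrial carbonic anhydrase, was at 55.4 and 36.9 CPM in natural 5 and 6 and at 0 in the 4640465 UMIs of all clones, at least 57.1-fold under the lower natural animal (edgeR adjusted p 0.00833). It was not particular to this class, and was at 41 and 8.65 CPM in the mural-like and at 16.9 and 13.2 CPM in the endothelial-like cells of natural 5 and 6, where all clones were at 0. It was called lower in endocrine-like cells too (edgeR adjusted p 0.00625). FABP4, a fatty acid carrier of fat cells and small vessels, was at 64.3 and 124 CPM against 3.71, 0, 0 and 0 CPM in cloned 1 to 4 (log2 fold change -5.09, SE 0.61, adjusted p 0.000814). FGL1, a secreted protein best known from liver, was at 33.2 and 126 CPM against 0.743, 0, 0 and 0 CPM. WT animals were near the clones, at 0 for CA5A in all 3, at 0 to 3.38 CPM for FABP4 and at 4.06 to 9.18 CPM for FGL1.

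Other cells may lie in the stromal-like class, and their markers were summed beside it. The 6 markers of fat cells ran from 6.44 to 21.1 CPM in the stromal-like cells of the clones and from 15.5 to 132 CPM in the natural pair, and the 5 of mesothelial cells from 0 to 23 CPM and from 42.1 to 58.3 CPM. Their part in the difference was not tested. Among the higher genes of stromal-like cells, NFKBIA, the inhibitor of NF-kappaB, was at 189, 78, 106 and 54 CPM in cloned 1 to 4 against 4.43 and 13.6 CPM (log2 fold change 3.49, SE 0.66, adjusted p 0.0473). TOB1, a brake on cell growth, was at 210, 184, 269 and 184 CPM against 28.8 and 36.9 CPM (2.49, SE 0.41, adjusted p 0.0158).

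In mural-like cells the 4 genes named for the largest rises were RNF122, ZFP36, MKNK2 and CSRNP1. ZFP36, which destabilises the messages of cytokines, was at 67, 76.8, 73.1 and 78.4 CPM in cloned 1 to 4 against 5.86 and 8.65 CPM in natural 5 and 6 (log2 fold change 3.29, SE 0.62, adjusted p 0.0176). FOSB, CSRNP1 and the ubiquitin ligase gene RNF122 were higher by 2.96, 3.25 and 3.42, each with cloned 4 the lowest clone. RNASE4, a secreted ribonuclease, was at 49.9 to 57 CPM against 234 and 160 CPM (log2 fold change -1.93, SE 0.38, adjusted p 0.019), with 78.3 to 124 CPM in WT animals. The stress list had a median of 1.14 in these cells, with FOSB and ZFP36 called among 23 tested. Over all genes tested in mural-like cells 0.208% were called.

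In endothelial-like cells the 4 genes named for the largest rises were GJA5, HES1, FAM134B and PNOC. GJA5, the connexin of arterial endothelium, was at 10.1, 39.5, 37.7 and 25.7 CPM in cloned 1 to 4 and at 0 in the 1153231 UMIs of the natural pair, with the lowest clone at least 3.88-fold higher (edgeR adjusted p 0.0396), with 8.5 to 13.3 CPM in WT animals. In duct-like cells GJA5 lay the other way, at 36.3, 17.3, 5.7 and 32.9 CPM in the clones against 142 and 158 CPM, without being called (edgeR adjusted p 0.125), and in mural-like cells the groups overlapped. HES1 was at 778, 503, 776 and 284 CPM against 57.2 and 30.8 CPM (log2 fold change 3.75, SE 0.56, adjusted p 0.00937). PNOC, the precursor of nociceptin, was at 131, 185, 293 and 110 CPM against 19.1 and 13.2 CPM (3.44, SE 0.47, adjusted p 0.00485). FAM134B, a receptor for the turnover of the endoplasmic reticulum, was at 37.6 to 64.1 CPM against 0 and 7.34 CPM. None of the 8 endothelial gating markers was called, but they were used to assign the cells and their levels are a description only.

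Schwann-like cells were too few in the natural pair for a test of genes, with 12 cells in each animal and 94595 UMIs in both together. The counts summed over each group were 2313 for CRYAB in clones and 48 in the natural pair, a level of 2086 and 507 CPM. The animals overlapped, since cloned 4 was at 625 CPM and natural 5 at 747 CPM while cloned 1 to 3 held 1798 to 2877 CPM. ID4, an inhibitor of differentiation factors, was at 386 CPM in the clones and 63.4 CPM (6 counts) in the natural pair, and here too cloned 4 (59.5 CPM) lay under natural 6 (96.6 CPM). The Schwann genes S100B and ERBB3 were at 285 and 319 CPM in the clones and at 307 and 296 CPM in the natural pair. SCN7A, a sodium channel gene, went the other way with the animals apart, at 207, 227, 166 and 134 CPM in cloned 1 to 4 against 350 and 696 CPM in natural 5 and 6 (220 and 51 counts). L1CAM was also lower with the animals apart, at 89.3 to 158 CPM in the clones against 210 and 174 CPM. CTNNAL1 was higher with the animals apart, at 316 to 461 CPM against 233 and 213 CPM (403 and 21 counts). SOX2 and GFAP were higher and apart too, at 3 and 1 counts in the natural pair. The share of all genes that were apart was not counted in these cells. These sums carry no replicate test.

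Several genes were called in many lineages at once. Among the higher ones were ANKRD1 and F3 (acinar-like, duct-like and endocrine-like cells), HES1 (acinar-like, endocrine-like and endothelial-like cells) and SLC7A1 and REL (acinar-like, duct-like and endocrine-like cells). IGFLR1, a receptor for IGF-like proteins, was lower in acinar-like, duct-like and endocrine-like cells, at 0 to 0.14 CPM in the acinar-like cells of clones against 2.88 and 1.86 CPM in the natural pair. WT 1 to 3 had 0.86, 0.788 and 0.0241 CPM there. In natural 5 and 6 IGFLR1 was at 60.6 and 51.6 CPM in myeloid-like and at 120 and 0 CPM in lymphoid-like cells. The clones were at 0 in both classes. The part of free RNA from such cells was not tested.

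Of the genes that the files name by an identifier alone, 3 were called in all 6 fitted lineages. LOC106991688 was higher in the clones, at 510, 839, 1180 and 636 CPM in the acinar-like cells of cloned 1 to 4 against 58.9 and 68.8 CPM in natural 5 and 6 (log2 fold change 3.0, SE 0.27, adjusted p 0.000862). WT 1 and WT 2 were as high as the clones there, at 985 and 1018 CPM, and WT 3 was at 248 CPM. LOC101104797 was lower in the clones, at 3.63 to 11.7 CPM against 126 and 63.3 CPM, and among the other animals only WT 3 (66.5 CPM) and the naturally bred lamb term 2 (53.2 CPM) were high. LOC101105290 was higher in 4 lineages, among them the acinar-like cells, by 1.48 (SE 0.3, adjusted p 0.0249).

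LOC101112291, a non-coding RNA in the RefSeq table, followed the labelled sex. It had 2 counts in 134038262 UMIs of the acinar-like cells of clones and 421 and 384 CPM in natural 5 and 6. Of the WT fetuses the female WT 2 held 477 CPM and the males 0.0469 and 0.0241 CPM, and the female lambs at term held 133 and 291 CPM against 0 in the male clone. In no lineage did it pass 1.53 CPM in a male. The contrast of clones with natural animals is thus also one of the labelled sexes. Of 14 tested genes that can escape X inactivation, DDX3X was called in acinar-like cells, higher by 1.17 in the male clones, and none was called in the other lineages. Over all genes tested in acinar-like cells 3.26% were called higher.

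**Figure D4:**
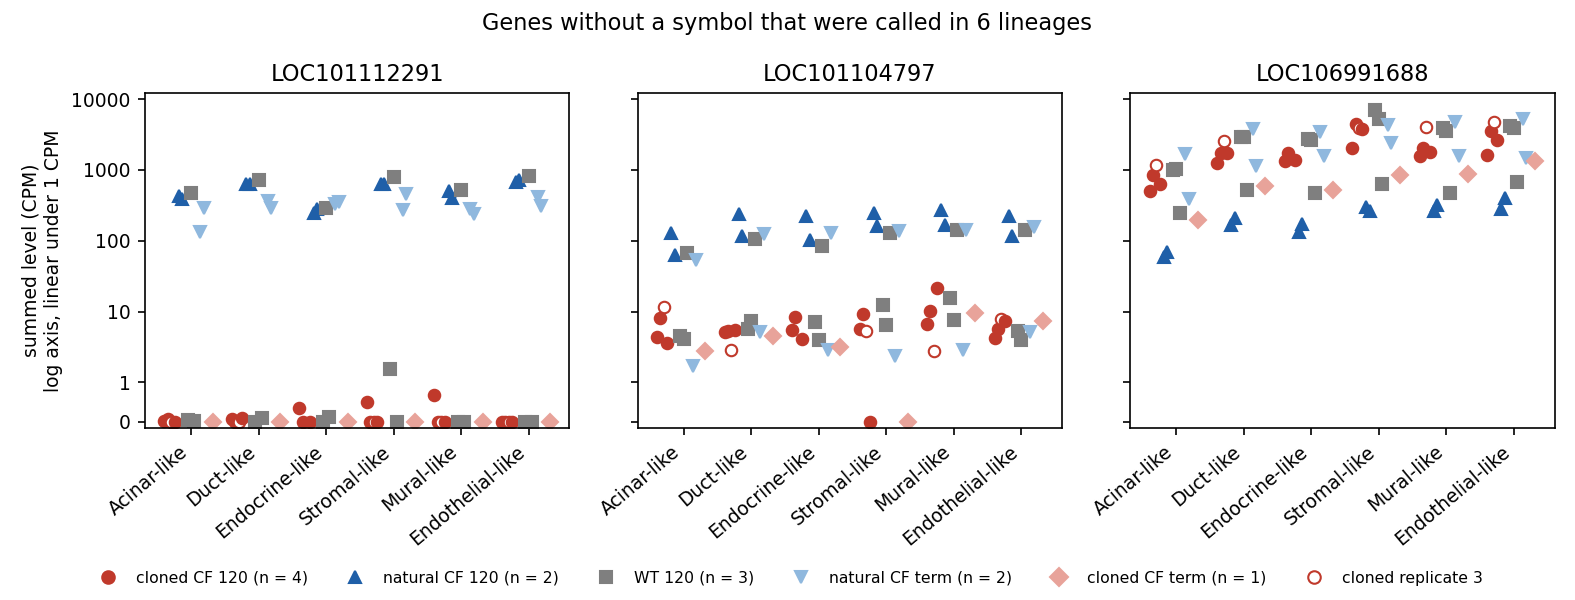
Level of the 3 genes called in all 6 fitted lineages (CPM of UMIs summed per animal, log axis that is linear under 1 CPM), 1 point per animal and lineage. LOC101112291 is at 1.53 CPM or less in every animal labelled male, LOC101104797 is high in the natural pair, WT 3 and term 2, and LOC106991688 is low in the natural pair and lower in WT 3 than in WT 1 and WT 2.

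The lambs at term gave the same contrast in animals that did not choose these genes, with 1 clone and therefore no test. The cloned lamb was male and both naturally bred lambs were female, so breeding and sex cannot be told apart there either. Of the 455 genes higher in the acinar-like cells of the 120-day clones, the cloned lamb was above both naturally bred lambs in 55 (12.1%, against 25.7% of all genes tested) and below both in 253 (55.6%, against 25.8%). Of the 24 higher genes of duct-like cells it was above in 2 (8.33%, against 28.4%) and below in 20 (83.3%, against 40.5%), and of the 104 of endocrine-like cells above in 26 (25%, against 35.8%) and below in 57 (54.8%, against 32.7%). HSPH1 in acinar-like cells was at 51.5 CPM in the cloned lamb and at 52.2 and 214 CPM in the naturally bred ones. CXCL8 in duct-like cells was at 1.56 CPM against 154 and 143 CPM. The direction seen at 120 days was thus not that of most of these genes between the lambs.

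The lower genes differed by lineage in the same lambs. Of the 174 lower genes of acinar-like cells, the cloned lamb was below both naturally bred lambs in 50 (28.7%, against 25.8% of all genes) and above both in 48 (27.6%, against 25.7%). In duct-like cells the cloned lamb was below both in 6 of the 8 lower genes (75%, against 40.5% of all genes) and above both in none. In stromal-like cells it was likewise below both in 6 of 8 (75%, against 25.8%) and above both in none. Both sets of 8 genes include LOC101112291, which followed the labelled sex. Of the 46 lower genes of endocrine-like cells, the cloned lamb was below both in 17 (37%, against 32.7%) and above both in 12 (26.1%, against 35.8%). CLPS was at 14347 CPM in the acinar-like cells of the cloned lamb and at 43420 and 36676 CPM in the others, and SYCN at 3612 CPM against 8458 and 13490 CPM, both in the direction seen at 120 days.

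The sex of the WT fetuses allows a similar look with 1 female and 2 males. The female WT 2 was below both WT males in 292 of the 455 higher genes of acinar-like cells (64.2%, against 44.6% of all genes) and above both in 34 (7.47%, against 18.4%). In duct-like cells it was below both in 17 of 24 (70.8%, against 26.5%). In endocrine-like cells the shares were near those of all genes, with WT 2 below both males in 46 of 104 higher genes (44.2%, against 47.7%) and above both in 27 (26%, against 23.6%). WT 2 is 1 animal, and sex cannot be told apart from that animal. Of the 174 lower genes of acinar-like cells it was above both males in 75 (43.1%, against 18.4%). All 3 WT animals lay above both natural animals in 23 of the 24 higher genes of duct-like cells (95.8%, against 17.4% of all genes). In endocrine-like cells they did so in 86 of 104 (82.7%, against 21.6%). They lay below both in 4 of the 8 lower genes of duct-like cells (50%, against 21%) and in 35 of the 46 of endocrine-like cells (76.1%, against 14.2%). The natural animals entered the calls too, so that these shares are a description only.

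The number of calls depended on the animals and on the method, as the plot of calls by setting shows. Of 137 named pairs of gene and lineage that were called, none changed direction under any alternative, and 11 stayed called under every alternative that tested them. These include CDKN1A, GADD45A, HES1, REG1A, IGFLR1 and LOC106991688 in acinar-like cells, ETS2 in endocrine-like cells and FABP4 in stromal-like cells. Leaving out natural 5 or natural 6 ended 100 and 95 of the 137 calls.

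**Figure D5:**
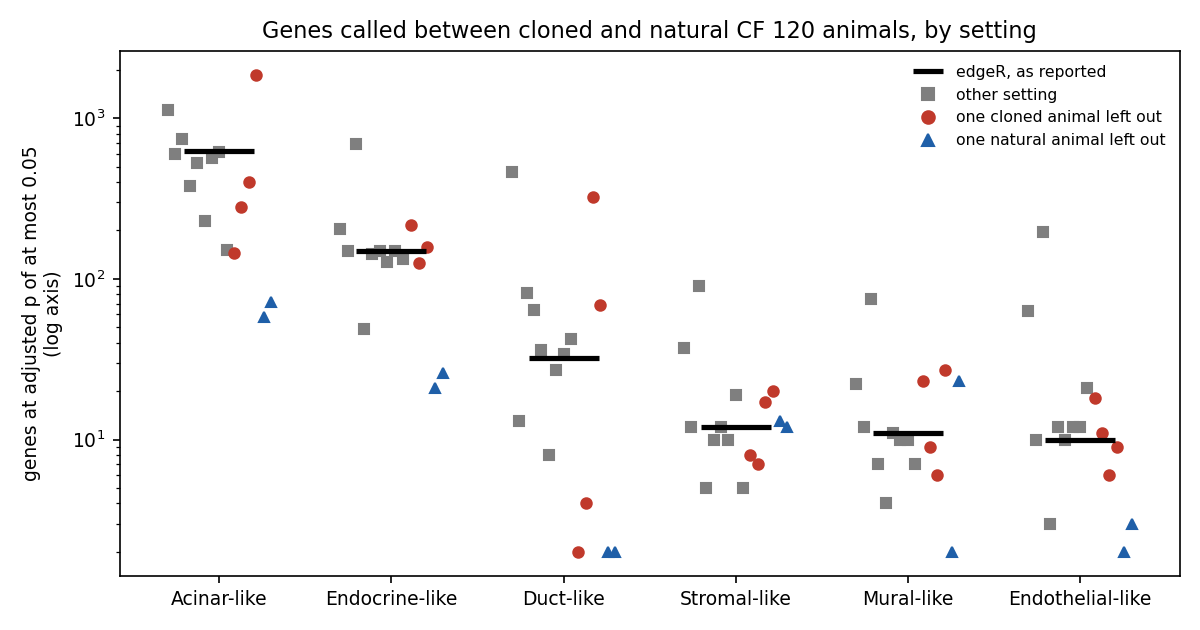
Number of genes called between cloned and natural animals in each fitted lineage (log axis), with the reported fit (bar), other settings (squares), fits without 1 cloned animal (circles) and fits without 1 natural animal (triangles). In acinar-like cells the numbers run from 58 to 1867 around the reported 629, and in duct-like cells from 2 to 460 around 32.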

How the data were processed

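Single-cell libraries of the sheep pancreas were analysed from the UMI count of each gene in each barcode, which the authors deposited without normalization after Cell Ranger 3.1.0 against Oar_v4.0. Barcodes with over 200 and under 6000 genes and under 25% mitochondrial UMIs were kept. No doublet caller was run, and an alternative left out the top 5% of cells by UMIs. Names came from the files for 16046 of 24478 genes, from the study's tables for 119 and from the RefSeq table for 455. That table is of another assembly, so no coordinate is given.

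A cell's score for a lineage was the mean over its markers of the square root of UMIs per 10000, scaled to the 95th percentile of positive cells and capped. Cells with a score of at least 0.2 and a lead of at least 0.1 were assigned. Leads under the strict 0.2 made up 2.21% (endocrine-like) to 22.7% (mural-like) of the fitted lineages, and 5.34% of cells were assigned to none. Libraries of an animal were summed. Groups follow the labelled sex, which coincides with the breeding listed by the study.

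Shares were compared by exact permutation (scipy 1.17.1, 0.5 cell added). Sums of animals with at least 20 cells were tested in edgeR 4.0.16 (R 4.3.3, TMM, filterByExpr, robust quasi-likelihood), with Benjamini-Hochberg adjustment over all genes of a lineage. SEs were taken from the fold change and its F statistic. Tested on simulated data, the fits gave median estimates near the folds put in, but of 100 genes changed 2-fold they called 27, 5, 54, 2, 6 and 6 in acinar-like, duct-like, endocrine-like, stromal-like, mural-like and endothelial-like cells, so that a gene not called there may still differ. False calls exceeded the nominal share in every fitted lineage, with 26 of 150 in acinar-like, 18 of 172 in endocrine-like, 8 of 74 in stromal-like, 9 of 91 in endothelial-like, 6 of 72 in duct-like and 4 of 72 in mural-like cells. Separate animals are replicates, yet clones share a genotype and the natural pair a litter, so p-values measure the spread between these animals only.

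For each lineage the text names the 4 genes with the largest rise and the 4 with the largest fall among calls with separate groups, a symbol and at least 20 CPM. It adds genes called in several lineages (8 each way), called members of the lists, CFTR and genes the study names at 120 days. Not all are printed, and some genes are not reported here. The animals, lists, rule and tests were chosen with earlier results of these data known. Further alternatives were DESeq2 1.42.0, relative log expression factors, no low-count filter, WT animals in the fit, a stricter gate, single libraries of cloned 1, UMIs thinned to the smallest total and each animal left out.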

Additional observations from a re-analysis of the deposited data

Results flagged for a closer look

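In the groups of 4 clones, 9 values lay so far from the other 3 that the gap to the nearest passed the 95% limit of Dixon's test. About 1 group in 20 passes that limit by chance. The number of groups screened is not given here, so the count of 9 is not set against the number expected by chance. The 9 values included the shares of mural-like cells (19.9%) and of endothelial-like cells (44.6%), both highest in cloned 3. CFTR in duct-like cells was another, at 848 CPM in cloned 3. LOC101104797 in duct-like cells was lowest in cloned 3, at 2.85 CPM. In stromal-like cells FABP4 (3.71 CPM) and FGL1 (0.743 CPM) were above 0 in cloned 1 alone. LOC101112291 was highest in cloned 2 in acinar-like cells (0.0699 CPM) and was above 0 in cloned 1 alone in stromal-like (0.495 CPM) and mural-like cells (0.67 CPM), each at 1 or 2 counts. In 3 of these 9 values the animal was cloned 3 at its highest, the library with the fewest cells and UMIs, and the part of its depth in them was not tested.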

How the results depend on the processing

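No paired analysis was possible because the labels number the cloned donors 1 to 4 and the natural donors 5 and 6, so that the groups share no replicate number. The 2 groups hold 4 and 2 animals, and a fit without a natural animal rests on 1. Cloned 3 is shallow and could not be fitted in endocrine-like cells. Without the top 5% of cells by UMIs it also fell out of the acinar-like fit, since those cells were mostly acinar-like.

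Calls in acinar-like cells were 629 as reported, 1132 by DESeq2, 379 with WT animals in the fit, 230 without the top 5% of cells by UMIs, 152 after thinning and 58 to 1867 without 1 animal. In duct-like cells the 32 calls became 460 (409 higher and 51 lower) by DESeq2, 13 with relative log expression factors, 82 without the low-count filter, 64 with WT, 8 without the top cells and 2 to 324 without 1 animal. Endocrine-like calls (150) became 692 without the filter, 49 with WT and 21 to 216 without 1 animal. Stromal-like calls (12) became 37 by DESeq2, 90 without the filter, 5 with WT, 19 with library B alone of cloned 1, 5 after thinning and 7 to 20 without 1 animal. Mural-like calls (11) became 22, 75 and 7 under DESeq2, no filter and WT, 4 with the stricter gate, 7 after thinning and 2 to 27 without 1 animal. Endothelial-like calls (10) became 63, 197 and 3 under DESeq2, no filter and WT, 21 after thinning and 2 to 18 without 1 animal. The cause of these shifts was not tested beyond their construction.

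The higher share of calls moved with the scaling in duct-like cells, from 75% to 53.8% with relative log expression factors, and with the animals, to 50% and 25% without cloned 1 and 2 and 0% without either natural animal. With those factors the calls were 13, all among the 32. In mural-like cells it was 72.7%, and 25% with the stricter gate, 42.9% after thinning, 47.8% without cloned 1 and 0% and 39.1% without natural 5 and 6. In endothelial-like cells it fell from 80% to 0% without either natural animal. Of the log2 differences in share, the endocrine-like one was -1.38 and turned to 0.072 by edgeR on cell numbers and 0.71 without cloned 3, with a range of -2.26 to 0.71 over the animals left out. The duct-like one (0.33) turned to -0.074 without cloned 4 and reached 0.62, and the lymphoid-like one (-1.45) turned to 0.93 without natural 5 and reached -3.84. The other shares kept their direction, and none passed an adjusted p of 0.05 under any setting.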
